A study of Mus musculus with 18 samples.

Results

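The transcripts of voltage-gated calcium channels, calcium store channels and calcium pumps were taken as every gene whose array annotation symbol begins with Cacna, Cacnb, Cacng, Ryr, Atp2a or Atp2b, or is Itpr1, Itpr2 or Itpr3, on probe sets with 1 symbol. This gave 36 genes with 87 probe sets, out of 18193 named genes on the array. They comprised 9 pore genes, 4 α2δ genes, 3 β genes, 8 γ genes, 3 ryanodine receptor genes, 2 inositol trisphosphate receptor genes, 3 store pump genes and 4 plasma membrane pump genes. Itpr1, Cacnb3 and Cacna1i were not analysed here. After a filter on dim probe sets, 30 of the 36 genes and 68 of their 87 probe sets were tested.

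Calcium enters a neuron through voltage-gated channels, is released from the endoplasmic reticulum through ryanodine and inositol trisphosphate receptors, and is removed by pumps of the store and of the plasma membrane. Every voltage-gated channel has a pore subunit, and many also have a cytosolic β subunit and an extracellular α2δ subunit. Most brain members of the γ family serve as auxiliary subunits of AMPA-type glutamate receptors instead. Raised calcium entry and store release in old hippocampal neurons is a long-standing subject of research on memory and ageing.

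RNA of 18 mouse hippocampus samples was hybridised to 1 array each, in a design that contrasts aged animals of poor and of good spatial memory. There were 6 young samples, labelled unimpaired in spatial memory, 6 aged samples labelled unimpaired and 6 aged samples labelled impaired. The labels name no strain, sex or age in months, and do not say whether each sample is a separate animal, so the p-values measure the spread between these samples. Values are log2 of the array signal after scaling each array to the same trimmed mean and adding an offset of 16, so that a signal of 0 is a value of 4. A difference is between group means on this scale, with the standard error of the fit after ±. A probe set was called at an adjusted p under 0.05 (limma, Benjamini-Hochberg over 27022 probe sets). Each gene is given on its probe set of highest mean, and a level is never set against that of another gene because probes bind with unequal strength.

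Markers of the labelled tissue were measured in every array. Prox1, which marks dentate granule cells, lay between 7.91 and 8.86, and the mean of 6 CA1 markers was 10.59 in young, 10.65 in aged unimpaired and 10.48 in aged impaired samples. Microglia markers were higher in the aged groups. Of 11, 10 had a higher mean in aged impaired than in young samples, and their summed signal ran from 14310 to 17450 in young, 20220 to 29400 in aged unimpaired and 22340 to 32030 in aged impaired samples. Myelin markers were higher in the impaired group for 10 of 11 genes against young (median difference 0.32), with sums of 71700 to 103500 in young and 84380 to 123800 in aged impaired samples. Median differences of impaired from young samples were -0.02 for 4 CA3 markers, -0.03 for 7 interneuron, 0.07 for 6 endothelial and -0.05 for 13 presynaptic markers. CA1 markers had a higher mean in impaired samples for 1 of 6, both against young (median -0.11) and against unimpaired samples (median -0.19). Dentate granule markers went the other way. Their mean was higher in impaired samples for 4 of 6 against young (median 0.09) and 5 of 6 against unimpaired samples (median 0.17). Choroid plexus markers were lower in unimpaired than in young samples for all 17 (median -0.84) and higher in impaired than in unimpaired samples for all 17 (median 0.83). They varied within every group, with sums of 21190 to 104400 in young, 9607 to 89050 in aged unimpaired and 18400 to 102900 in aged impaired samples. A lower level in bulk tissue cannot be told apart from fewer cells of the type that holds the transcript.

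None of the 30 tested calcium channel, store channel and pump genes was called as higher or lower in any of the 4 comparisons. In aged impaired against young samples 0 of 30 members were called on limma's test, where 1.9% of all 13121 named genes were. At an unadjusted p under 0.05 there were 2 members of 30, beside 16.2% of all genes. Of the 30, 15 had a higher mean, beside 49.2% of all genes, and the median difference was 0.005 (all genes -0.003). The median size of a difference was 0.135, against 0.108 over all genes.

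The other comparisons gave the same count of 0. In aged unimpaired against young samples the background was 0.145% called (0.114% higher and 0.0305% lower), and 4 members of 30 lay at an unadjusted p under 0.05 where 8.45% of all genes did. For both aged groups together against young these were 1.19% called (0.815% higher), 3 members and 13.9% of genes. In aged impaired against aged unimpaired samples they were 0.00762% called, 2 members and 8.06% of genes. A higher mean was found for 18, 16 and 11 of 30 members in these comparisons in turn, beside 47.7%, 48.0% and 52.3% of all genes. Groups of no member were free of overlap on its highest probe set, where 2.32%, 0.884%, 0.381% and 0.556% of all genes were (impaired against young, unimpaired against young, both aged against young, impaired against unimpaired). Over all 68 tested member probe sets, called counts were also 0, beside 1.63%, 0.137%, 0.947% and 0.0111% of all probe sets in the same order. At an unadjusted p under 0.05 there were 7, 6, 4 and 6 of 68, beside 15.8%, 8.19%, 13.4% and 8.09%, with lowest adjusted p of 0.0722, 0.491, 0.106 and 0.493.

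For 24 of 30 members the 95% interval of the difference stayed within a 1.5-fold change in either direction in all 4 comparisons, a size chosen after the data were seen. The members with a wider interval in at least 1 comparison were Cacna1a, Cacng8, Itpr2, Itpr3, Atp2a1 and Atp2a3. Their intervals reached past 1.5-fold on this scale. The SD between samples of a group, pooled over groups, ran from 0.117 for Cacna2d3 and Atp2a2 to 0.596 for Cacng8 and 0.698 for Atp2a1, with a median of 0.194.

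**Figure D1:**
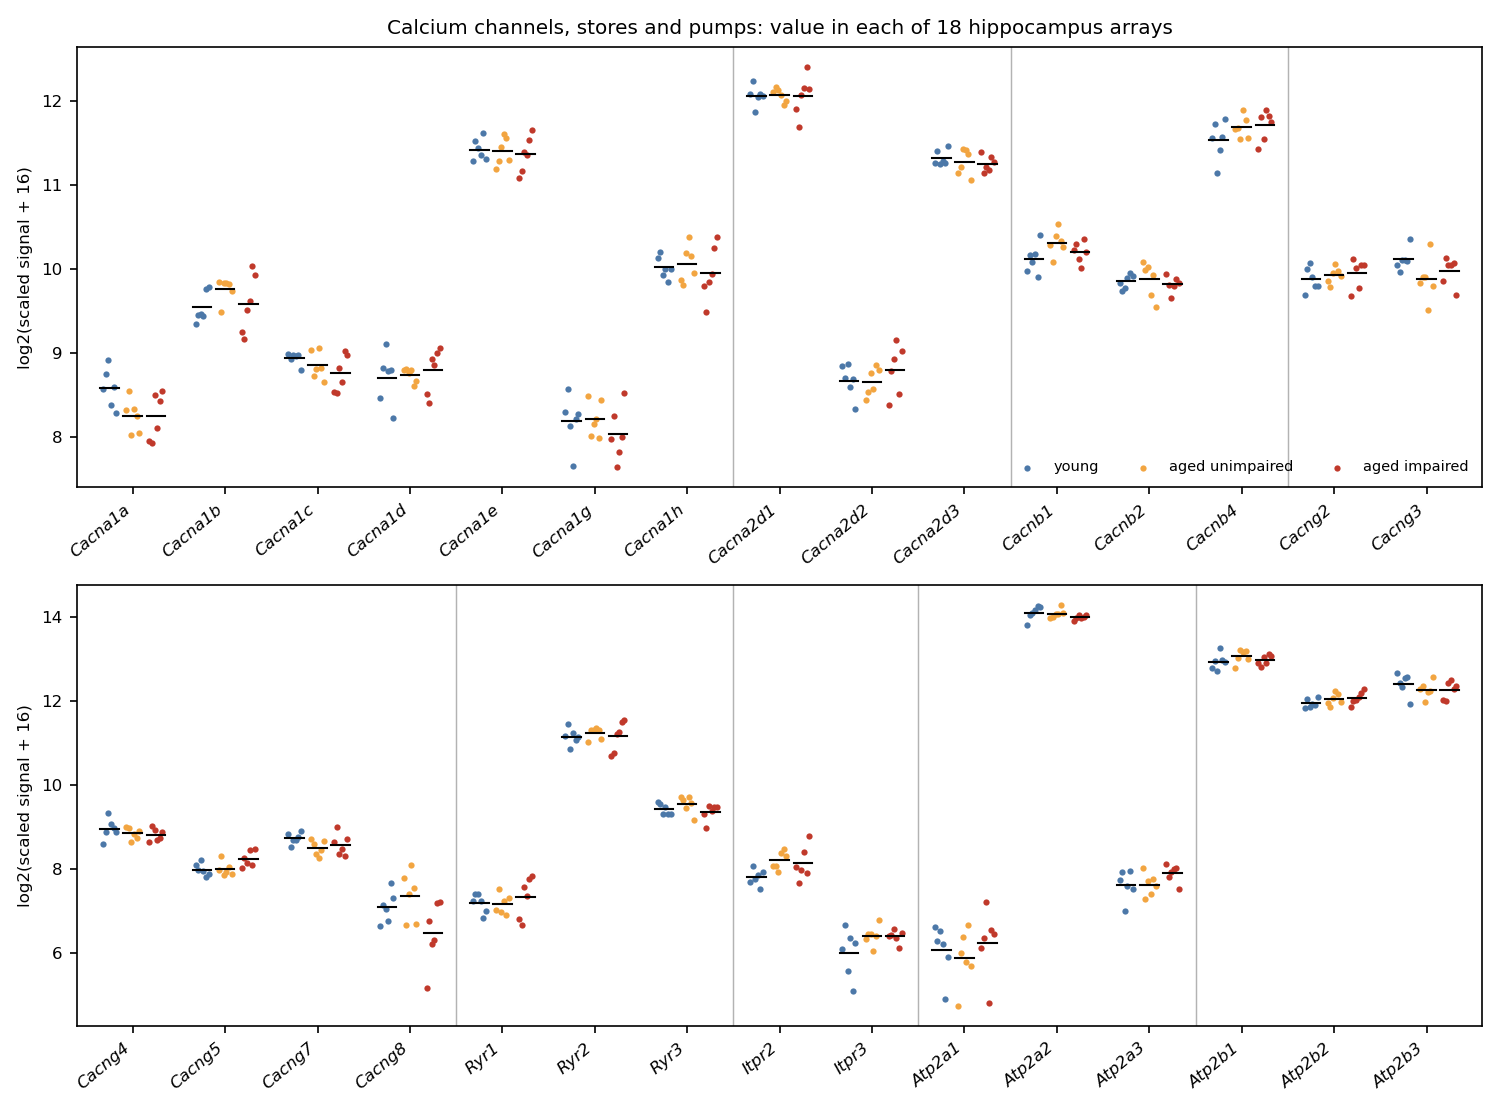
Log2(scaled signal + 16) of the 30 tested members, 1 point per array (n = 6 per group) with a line at each group mean, ordered by protein family. Heights are comparable within a gene only. The 3 groups overlap for every gene, and Cacng8 and Atp2a1 scatter most (pooled SD 0.596 and 0.698).

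**Figure D2:**
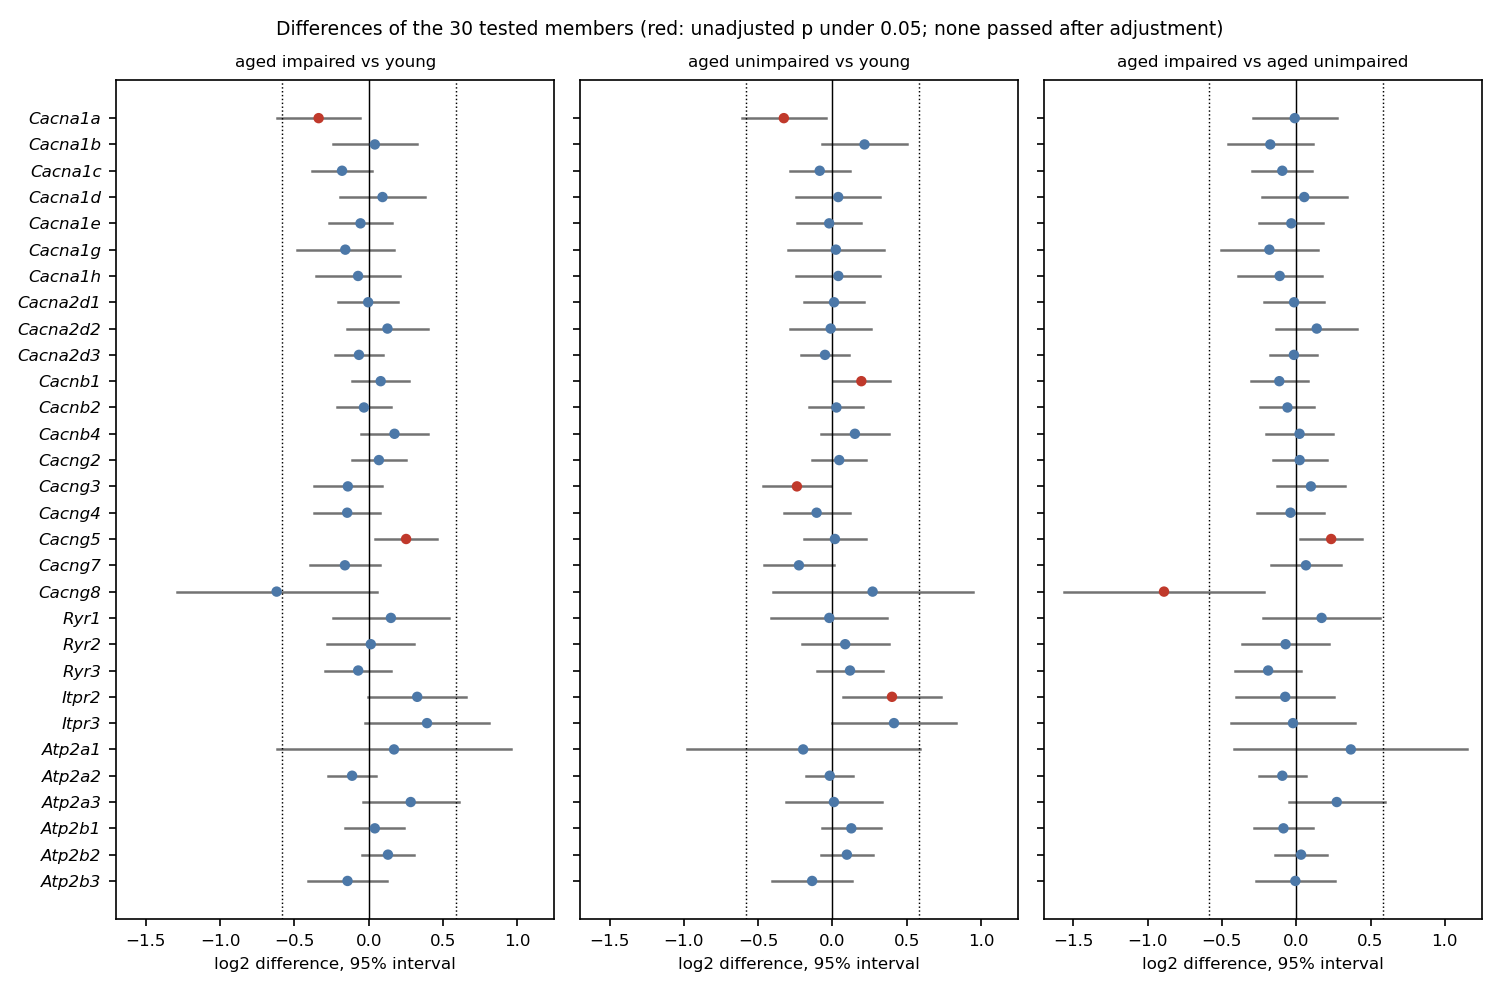
Log2 difference (x axis) and its 95% interval for each of 30 members in 3 comparisons of 6 against 6 arrays, with dotted lines at a 1.5-fold change. Red points have an unadjusted p under 0.05, and 0 members passed after adjustment.

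Pore subunits set the type of calcium current. Cacna1a, the pore of P/Q-type channels at presynaptic terminals, had log2 values of 8.29 to 8.92 (median 8.58) in young, 8.03 to 8.55 (median 8.29) in aged unimpaired and 7.93 to 8.55 (median 8.27) in aged impaired samples. The ranges overlapped, although all 12 aged samples lay below the young mean. The difference was -0.34 ± 0.13 for aged impaired and -0.33 ± 0.13 for aged unimpaired against young, and neither passed (adjusted p = 0.222 and 0.519). The impaired and unimpaired groups differed by -0.01 ± 0.13. A dimmer probe set of Cacna1a, 1430408_at, went the other way (0.58 ± 0.34 against young in the impaired group), and 1459996_at stood at -0.14 ± 0.19. With the mean of the 3 probe sets the impaired difference was 0.03 and that of both aged groups 0.01, so the direction turned. With the covariate of myelin minus presynaptic markers the impaired difference was -0.16.

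Cacna1c is the main L-type pore of hippocampal pyramidal cells, much studied in old neurons. Its values were 8.80 to 8.99 (median 8.97) in young, 8.66 to 9.06 (median 8.82) in aged unimpaired and 8.53 to 9.02 (median 8.74) in aged impaired samples. The young samples lay close together, and both aged groups reached above and below them. The difference from young was -0.18 ± 0.10 in aged impaired (95% interval -0.38 to 0.02, adjusted p = 0.382) and -0.09 ± 0.10 in aged unimpaired samples. The second probe set gave -0.05 ± 0.11 and -0.04 ± 0.11. Cacna1d, the other L-type pore of neurons, differed from young by 0.09 ± 0.14 and 0.04 ± 0.14 in the same order (adjusted p = 0.788 and 0.970). Its second probe set went the other way in both groups (-0.10 ± 0.17 and -0.15 ± 0.17).

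Cacna1b forms N-type channels, which trigger transmitter release together with P/Q-type channels. Its values were 9.35 to 9.79 (median 9.46) in young, 9.49 to 9.84 (median 9.83) in aged unimpaired and 9.17 to 10.04 (median 9.56) in aged impaired samples. All unimpaired samples but replicate 2 lay in the upper part of the young range or above it, and the aged impaired samples spanned the range of the other groups. The difference was 0.22 ± 0.14 for aged unimpaired against young and -0.17 ± 0.14 for aged impaired against aged unimpaired (adjusted p = 0.717 and 0.773). Of its 4 probe sets, 3 had a higher and 1 a lower mean in aged impaired than in young samples, all within -0.04 to 0.11. In unimpaired against young samples all 4 had a higher mean, by 0.045 to 0.30. In impaired against unimpaired samples 3 had a lower and 1 a higher mean, from -0.23 to 0.07. The brightest, 1436602_x_at, has an x suffix, which marks probes that can match other transcripts.

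Cacna1e, the pore of R-type channels, differed from young by -0.06 ± 0.10 in impaired and -0.02 ± 0.10 in unimpaired samples. Its dimmer probe set, 1421692_at, went the other way (0.23 ± 0.17 and 0.33 ± 0.17, adjusted p = 0.560 and 0.656). The mean of its probe sets gave 0.09 and 0.15. The T-type pores, which open at low voltage and favour burst firing, were Cacna1g and Cacna1h. Cacna1g had values of 7.66 to 8.58 (median 8.25) in young, 7.99 to 8.49 (median 8.19) in aged unimpaired and 7.64 to 8.53 (median 7.99) in aged impaired samples. Its impaired samples differed from the unimpaired by -0.18 ± 0.15 (adjusted p = 0.797), and the groups overlapped. With the covariate of myelin minus presynaptic markers this turned to 0.02. Cacna1h differed by -0.07 ± 0.13 and -0.11 ± 0.13 in the impaired samples against young and unimpaired. Of the 7 tested pore genes, 6 had a lower mean in impaired than in unimpaired samples, with a median of -0.09 and 0 calls.

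Pore genes used outside the brain lay below the filter. Cacna1s, the pore of skeletal muscle, ran from 4.37 to 5.72 over the 18 arrays, and Cacna1f, the pore of retinal photoreceptors, from 4.57 to 6.54. Of 8 skeletal muscle markers, 5 were below the filter too. Acta1, muscle actin, lay between 8.53 and 9.01.

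The α2δ subunits carry channels to the membrane, and Cacna2d1 and Cacna2d2 bind the drug gabapentin. Cacna2d1 had values of 12.06 ± 0.12 in young, 12.07 ± 0.08 in aged unimpaired and 12.06 ± 0.24 in aged impaired samples (mean ± SD, n = 6). Its differences from young were -0.0036 ± 0.10 in impaired and 0.01 ± 0.10 in unimpaired samples. A dim probe set of the gene, 1440397_at, was lower in impaired samples at -0.32 ± 0.15 against young and -0.33 ± 0.15 against unimpaired samples (adjusted p = 0.296 and 0.589), and neither passed. Cacna2d2 had values of 8.33 to 8.87 (median 8.70) in young, 8.44 to 8.87 (median 8.67) in aged unimpaired and 8.38 to 9.16 (median 8.86) in aged impaired samples. The impaired samples reached above the other groups and overlapped them, and the difference from unimpaired was 0.14 ± 0.13 (adjusted p = 0.811). Cacna2d3 differed from young by -0.07 ± 0.08 and -0.05 ± 0.08 in the impaired and unimpaired samples. Cacna2d4 was below the filter on its 3 probe sets, with values from 4.06 to 6.54.

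The β subunits bind the pore from the cytosol and set how many channels reach the membrane. Cacnb1 had values of 9.90 to 10.40 (median 10.13) in young, 10.08 to 10.53 (median 10.31) in aged unimpaired and 10.01 to 10.35 (median 10.21) in aged impaired samples. Of 6 unimpaired samples 5 lay above the young mean, with a difference of 0.19 ± 0.09 (adjusted p = 0.593), and the ranges overlapped. The other probe sets of Cacnb1 gave -0.06 ± 0.10, 0.01 ± 0.11 and 0.02 ± 0.13 in that comparison, and their mean with the first came to 0.04. In the impaired samples 1425777_at stood at -0.27 ± 0.10 against young (adjusted p = 0.186) while the brightest stood at 0.08 ± 0.09, and the mean of probe sets turned to -0.10. The probe sets of this gene thus disagreed in sign.

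Cacnb4, whose loss causes the lethargic ataxia of mice, had values of 11.14 to 11.79 (median 11.57) in young, 11.55 to 11.89 (median 11.68) in aged unimpaired and 11.43 to 11.90 (median 11.78) in aged impaired samples. Of 12 aged samples 11 lay above the young mean, and the differences were 0.17 ± 0.11 and 0.15 ± 0.11 in impaired and unimpaired samples (adjusted p = 0.463 and 0.756). Another bright probe set, 1428928_at, went the other way (-0.18 ± 0.14 and -0.15 ± 0.14), and the mean of probe sets gave 0.05 and -0.03. Cacnb2 differed by -0.03 ± 0.09 and 0.03 ± 0.09.

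The γ family is named for Cacng1 of the muscle channel, and its brain members Cacng2, Cacng3, Cacng4, Cacng5, Cacng7 and Cacng8 regulate the trafficking and gating of AMPA receptors. Cacng8, abundant in hippocampus, had the largest difference of the 30 members on their brightest probe sets. Its values were 6.64 to 7.68 (median 7.10) in young, 6.67 to 8.09 (median 7.49) in aged unimpaired and 5.17 to 7.23 (median 6.54) in aged impaired samples. Every impaired sample of the 6 lay below the unimpaired mean, yet the ranges overlapped and impaired replicate 1 was lowest at 5.17. The difference was -0.89 ± 0.32 (95% interval -1.56 to -0.22, adjusted p = 0.493), and -0.62 ± 0.32 against young. The second probe set of Cacng8, 1459579_at, went the other way (0.29 ± 0.17 and 0.29 ± 0.17), and the mean of the pair gave -0.30 for impaired against unimpaired. Both probe sets are dim, with means of 6.98 and 6.68 above a filter at 5.92.

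Cacng5 had values of 7.80 to 8.22 (median 7.97) in young, 7.86 to 8.30 (median 7.97) in aged unimpaired and 8.02 to 8.48 (median 8.21) in aged impaired samples. All 6 impaired samples were above the mean of each other group, and the ranges overlapped. The differences were 0.24 ± 0.10 against unimpaired and 0.25 ± 0.10 against young (adjusted p = 0.565 and 0.216). The remaining probe set of Cacng5 was below the filter.

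Cacng3 had lower means in the aged groups, with values of 9.97 to 10.36 (median 10.10) in young, 9.51 to 10.30 (median 9.87) in aged unimpaired and 9.69 to 10.13 (median 10.05) in aged impaired samples. Only 1 sample of each aged group lay above the young mean, and the differences were -0.24 ± 0.11 in unimpaired and -0.14 ± 0.11 in impaired samples (adjusted p = 0.585 and 0.573). Cacng7 had values of 8.53 to 8.91 (median 8.73) in young, 8.26 to 8.73 (median 8.53) in aged unimpaired and 8.31 to 8.99 (median 8.55) in aged impaired samples. All 6 unimpaired samples and 5 of 6 impaired samples were below the young mean, with differences of -0.23 ± 0.11 and -0.16 ± 0.11 (adjusted p = 0.625 and 0.527). Its second probe set, 1426336_at, went the other way (0.11 ± 0.19 and 0.03 ± 0.19), and the mean of the pair gave -0.06 in both groups. Cacng4 had values of 8.60 to 9.33 (median 8.94) in young, 8.65 to 9.01 (median 8.87) in aged unimpaired and 8.64 to 9.03 (median 8.80) in aged impaired samples, with differences of -0.14 ± 0.11 and -0.11 ± 0.11 in impaired and unimpaired samples.

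Cacng2, or stargazin, differed from young by 0.07 ± 0.09 in impaired and 0.05 ± 0.09 in unimpaired samples on its brightest probe set. Its probe set 1420596_at gave 0.01 ± 0.15 and 0.05 ± 0.15. The dim 1453363_at gave -0.05 ± 0.35 and -0.34 ± 0.35 (adjusted p = 0.964 and 0.856). Cacng1 ran from 4.12 to 5.97 and Cacng6 from 4.14 to 6.66, both below the filter. Of the 6 tested γ genes, 4 had a lower mean in impaired than in young samples, with a median of -0.14 and 0 calls.

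Ryanodine receptors release stored calcium when calcium itself or, in muscle, voltage opens them. Ryr2, the form of heart and brain, differed from young by 0.01 ± 0.14 in impaired and 0.09 ± 0.14 in unimpaired samples on its brightest probe set. Its dimmer probe set, 1421126_at, had values of 7.17 to 7.80 (median 7.75) in young, 7.19 to 7.77 (median 7.68) in aged unimpaired and 6.47 to 7.76 (median 7.27) in aged impaired samples. The impaired samples extended lower than the others, with differences of -0.49 ± 0.17 against young and -0.40 ± 0.17 against unimpaired samples (adjusted p = 0.176 and 0.583).

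Ryr3, a form found in hippocampus, had values of 9.31 to 9.59 (median 9.39) in young, 9.16 to 9.72 (median 9.61) in aged unimpaired and 8.99 to 9.50 (median 9.43) in aged impaired samples. All 6 impaired samples were below the unimpaired mean, with a difference of -0.19 ± 0.11 (95% interval -0.41 to 0.03, adjusted p = 0.682), and the ranges overlapped. Its probe set 1452533_at gave -0.23 ± 0.15 and the dim 1432133_at gave 0.03 ± 0.26. Ryr1, the muscle form, differed between impaired and unimpaired samples by 0.17 ± 0.19. A dim probe set of Ryr1, 1457347_at, gave 0.66 ± 0.24 (adjusted p = 0.499).

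Inositol trisphosphate receptors release stored calcium after activation of receptors coupled to phospholipase C, and Itpr2 is the main form of astrocytes. Itpr2 is given on its 3 tested probe sets, of which the second had the lowest adjusted p of the 68 member probe sets. On its brightest probe set, 1424834_s_at, the values were 7.53 to 8.07 (median 7.81) in young, 7.93 to 8.47 (median 8.20) in aged unimpaired and 7.67 to 8.79 (median 8.02) in aged impaired samples. All 6 unimpaired and 5 of 6 impaired samples were above the young mean, and the ranges overlapped. The differences were 0.40 ± 0.16 and 0.33 ± 0.16 (adjusted p = 0.491 and 0.321). The impaired difference was 0.20 without impaired replicate 6 and 0.17 with the covariate of myelin minus presynaptic markers, and the unimpaired one was 0.23 with the mean of probe sets.

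A second Itpr2 probe set, 1427287_s_at, singled out after its values were seen, had values of 7.25 to 7.93 (median 7.82) in young, 7.78 to 8.22 (median 8.06) in aged unimpaired and 8.05 to 8.30 (median 8.15) in aged impaired samples. All 6 impaired samples lay above all 6 young samples, and the range of the unimpaired samples overlapped each of those groups in part. Impaired and young samples were free of overlap on 2 of the 68 tested member probe sets, beside 2.32% of all genes on their brightest probe set. The difference was 0.41 ± 0.11 for impaired (95% interval 0.18 to 0.65, adjusted p = 0.0722) and 0.28 ± 0.11 for unimpaired against young (adjusted p = 0.499). Impaired and unimpaired samples differed by 0.13 ± 0.11. When the 60% dimmest probe sets were left out in place of 40%, the impaired difference passed at adjusted p = 0.0413. With that filter 3.17% of all genes were called in this comparison, against 1.9% in the main fit. With the covariate of myelin minus presynaptic markers the impaired difference was 0.18. The unimpaired difference was 0.18 without young replicate 5. The third tested probe set, 1424833_at, gave 0.07 ± 0.12 and 0.01 ± 0.12. The sources do not say which transcripts each Itpr2 probe set reads.

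Itpr3, a form of epithelial and immune cells, had values of 5.10 to 6.66 (median 6.17) in young, 6.06 to 6.80 (median 6.43) in aged unimpaired and 6.13 to 6.58 (median 6.42) in aged impaired samples. All 12 aged samples were above the young mean, and the ranges overlapped, with the widest spread among the young samples. The difference of both aged groups from young was 0.40 ± 0.17 (adjusted p = 0.321). It was 0.22 without young replicate 5, the lowest sample, and 0.22 with an offset of 64. Astrocyte markers had a higher mean in impaired than in young samples for 4 of 7 genes (median difference 0.07), with sums of 45230 to 57160 in young, 49680 to 58590 in unimpaired and 51410 to 60550 in impaired samples. No astrocyte or microglia marker was at a signal of 0, the dimmest value being 6.84 for Trem2. The part of astrocytes and microglia in the Itpr2 and Itpr3 values was not tested.

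Store pumps return calcium to the endoplasmic reticulum. Atp2a2, the pump of most cells including neurons, had values of 13.81 to 14.26 (median 14.12) in young, 13.98 to 14.28 (median 14.06) in aged unimpaired and 13.89 to 14.05 (median 13.98) in aged impaired samples. The groups overlapped, with all 6 impaired samples below the mean of each other group. The differences from young were -0.11 ± 0.08 in impaired and -0.02 ± 0.08 in unimpaired samples (adjusted p = 0.506 and 0.975). The interval for the impaired group was -0.27 to 0.05. A second bright probe set, 1427250_at, had values of 13.09 to 13.27 (median 13.16) in young, 12.97 to 13.21 (median 13.10) in aged unimpaired and 12.79 to 13.09 (median 13.06) in aged impaired samples. All 6 impaired samples lay just below its 6 young samples, 13.091 being the highest impaired and 13.093 the lowest young value, with a difference of -0.16 ± 0.06 (adjusted p = 0.230). Of the 5 tested Atp2a2 probe sets, 4 had a lower mean in impaired than in young samples, and the dim 1437797_at had a higher one (0.24 ± 0.23).

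Atp2a3, a store pump of blood and epithelial cells, had values of 7.01 to 7.95 (median 7.66) in young, 7.28 to 8.02 (median 7.67) in aged unimpaired and 7.53 to 8.13 (median 7.97) in aged impaired samples. Of 6 impaired samples 5 were above the young mean, with differences of 0.28 ± 0.15 against young and 0.27 ± 0.15 against unimpaired samples (adjusted p = 0.389 and 0.683). Atp2a1, the pump of fast muscle, was dim and scattered, with values from 4.75 to 7.21 and a difference of 0.37 ± 0.37 between impaired and unimpaired samples.

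Plasma membrane pumps expel calcium from the cell. Atp2b1, the form of most tissues, had values of 12.72 to 13.27 (median 12.93) in young, 12.79 to 13.21 (median 13.08) in aged unimpaired and 12.82 to 13.11 (median 12.97) in aged impaired samples. The groups overlapped, and the differences from young were 0.04 ± 0.09 in impaired and 0.13 ± 0.09 in unimpaired samples. All 3 of its probe sets had a higher mean in both aged groups, between 0.04 and 0.19. Atp2b2, a form of neurons and hair cells, had values of 11.82 to 12.09 (median 11.93) in young, 11.84 to 12.23 (median 12.02) in aged unimpaired and 11.85 to 12.29 (median 12.05) in aged impaired samples. Of 12 aged samples 10 were above the young mean, with differences of 0.13 ± 0.08 and 0.10 ± 0.08 (adjusted p = 0.483 and 0.814), while its other probe sets gave -0.20 ± 0.12 and -0.11 ± 0.20 in the impaired group. With the mean of probe sets the direction turned, to -0.06 in impaired and -0.05 in unimpaired samples.

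Atp2b3, a brain form, had values of 11.92 to 12.66 (median 12.48) in young, 11.96 to 12.57 (median 12.26) in aged unimpaired and 12.01 to 12.50 (median 12.32) in aged impaired samples. Of 12 aged samples 3 were above the young mean, and the differences were -0.14 ± 0.13 and -0.14 ± 0.13 in impaired and unimpaired samples (adjusted p = 0.631 and 0.828). Atp2b4 was below the filter, with values from 4.12 to 6.08. The 10 tested members not given by sample above on their brightest probe set run from Atp2a1 and Cacna1d to Ryr1 and Ryr2. On those probe sets they had differences between -0.20 and 0.37 over the 4 comparisons, with a lowest adjusted p of 0.724. Dimmer probe sets of Ryr1, Ryr2, Cacna2d1 and Cacng2 gave differences outside this range, as stated above.

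Probe sets of 1 gene often disagreed. Of the 22 members with more than 1 tested probe set, 60 probe sets in all, every probe set had the same sign for 10 in impaired against young, 9 in unimpaired against young and 11 in impaired against unimpaired samples. For both aged groups against young it was 6. Among the genes with 1 sign in impaired against young samples were Itpr2 (higher on 3), Atp2b1 (higher on 3), Cacna2d1 (lower on 4) and Ryr3 (lower on 3).

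**Figure D3:**
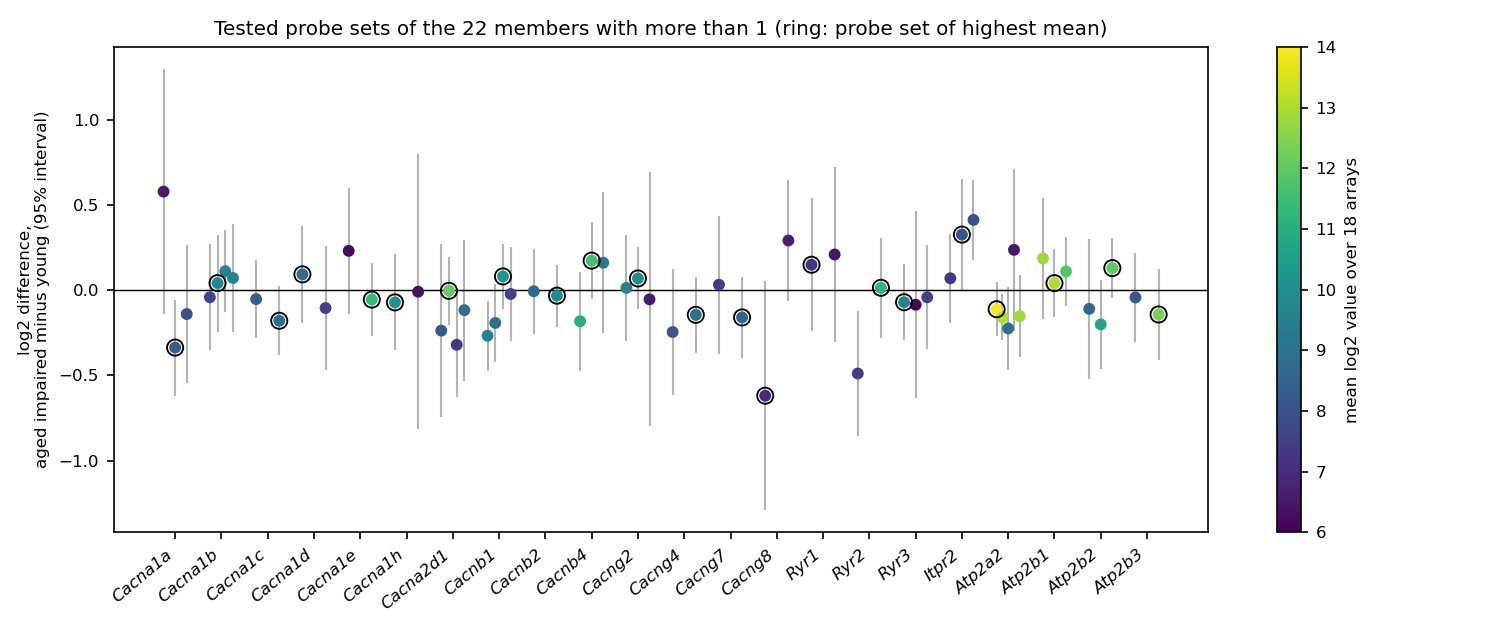
Log2 difference between aged impaired and young samples (y axis, bars are 95% intervals, n = 6 per group) for each of the 60 tested probe sets of 22 members, coloured by mean log2 value and with a ring at the probe set of highest mean. For 10 of the 22 genes all points lie on 1 side of 0.

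Other genes of calcium handling, 74 in all, were listed, and 65 of them were tested. They cover store-operated entry, sodium-calcium exchange, mitochondrial uptake, partners of the store channels and pumps, and proteins that bind calcium in the store and the cytosol or regulate the channels. On the probe set of highest mean, 1 of 65 was called lower and 0 higher in impaired against young samples, beside 0.594% and 1.3% of all genes. For both aged groups 1 was called lower, beside 0.373%, and 0 higher. In unimpaired against young and in impaired against unimpaired samples 0 were called, beside 0.145% and 0.00762% of all genes. At an unadjusted p under 0.05 there were 7 of 65 in impaired against young, 5 in unimpaired against young and 3 in impaired against unimpaired samples, beside 16.2%, 8.45% and 8.06% of all genes. The medians of the 4 differences lay between -0.03 and -0.01.

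The gene that fell was Calr, which encodes calreticulin, the main calcium-binding chaperone of the store lumen. Its values were 13.54 to 13.72 (median 13.63) in young, 13.33 to 13.47 (median 13.37) in aged unimpaired and 13.06 to 13.44 (median 13.33) in aged impaired samples. All 12 aged samples lay below all 6 young samples, and 0.381% of all genes had no overlap in that comparison. The difference was -0.34 ± 0.07 in impaired (adjusted p = 0.0143), -0.24 ± 0.07 in unimpaired (adjusted p = 0.225) and -0.29 ± 0.06 in both aged groups against young (adjusted p = 0.0187). The impaired call also held on the other probe sets of Calr (-0.35 ± 0.07 and -0.38 ± 0.06), whose x suffix marks probes that can match other transcripts. It was lost with the covariate of myelin minus presynaptic markers (-0.42, adjusted p = 0.121) and in the fit of only those groups (adjusted p = 0.0568). With that covariate 0.0991% of all genes were called in this comparison, and in the fit of only those groups 1.04%, against 1.9% in the main fit. The call of both aged groups was lost with no filter (adjusted p = 0.0654), and on leaving out young replicate 3 (adjusted p = 0.0551) or young replicate 5 (adjusted p = 0.0531). Canx, the membrane-bound relative calnexin, stood at -0.13 ± 0.06 in impaired samples (adjusted p = 0.266).

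The promoters of Calr and Canx are shown because both hold the endoplasmic reticulum stress element, the sequence through which store stress is known to induce chaperone genes. The motif searched was CCAAT, any 9 bases and CCACG, on both strands, in 250 bases before to 50 bases after each RefSeq start (GRCm38.p6). It was found in 39 of 32851 promoters (0.119%), and in 2 of 73 promoters of the listed calcium-handling genes. In the 38 promoters of the 27 channel and pump genes that had a promoter sequence, 0 matched. No promoter was at hand for Atp2a2, Atp2b3, Cacna1a, Cacna1g, Cacna1h, Cacna2d4, Cacng1, Cacng4 and Ryr3, so these were not searched. Capitals mark the element, which lies in the Calr window on the reverse strand, 162 to 144 bases before the start (chr8:84847055-84847113, minus strand gene), and in the Canx window as spelled, 145 to 127 bases before the start (chr11:50325780-50325838, minus strand gene).
Calr: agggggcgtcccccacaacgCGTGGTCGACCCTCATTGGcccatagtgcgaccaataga
Canx: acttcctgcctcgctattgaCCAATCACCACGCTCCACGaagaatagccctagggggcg
A match describes these letters only, and binding was not measured.

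Among partners of the store channels, 1 probe set of Homer1 fell, chosen for mention once its values were known. Homer1 encodes scaffolds that tie metabotropic glutamate receptors to inositol trisphosphate and ryanodine receptors, with long constitutive forms and a short form induced by activity. Probe set 1436387_at had values of 10.23 to 10.80 (median 10.58) in young, 9.87 to 10.41 (median 10.19) in aged unimpaired and 9.29 to 9.85 (median 9.47) in aged impaired samples. All 6 impaired samples were below all 6 young and all 6 unimpaired samples. Of all genes on their brightest probe set, 2.32% and 0.556% had no overlap in these comparisons. In impaired against young samples 1.63% of all probe sets were called. The difference was -1.03 ± 0.12 against young (adjusted p = 0.000148) and -0.66 ± 0.12 against unimpaired samples (adjusted p = 0.0839), and -0.37 ± 0.12 for unimpaired against young (adjusted p = 0.343). The fall against young was called under all 30 alternatives, with a highest adjusted p of 0.0451. The difference from unimpaired samples was called with a filter of 60% (adjusted p = 0.0347) and with trended and robust moderation (adjusted p = 0.0162). In those settings 0.00983% and 0.0229% of all genes were called in that comparison. With the covariate of myelin minus presynaptic markers its adjusted p reached 0.578.

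The brightest of the 5 Homer1 probe sets, 1437363_at, had values of 11.87 ± 0.09 in young, 11.90 ± 0.10 in aged unimpaired and 11.92 ± 0.09 in aged impaired samples (mean ± SD, n = 6). Its difference was 0.05 ± 0.06 for impaired against young samples, and the other probe sets gave -0.12 ± 0.14, -0.03 ± 0.08 and -0.19 ± 0.07. The sources do not say which Homer1 form each probe set reads.

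Sln, which encodes sarcolipin, an inhibitor of the store pump, had values of 4.82 to 6.28 (median 6.01) in young, 6.09 to 6.73 (median 6.40) in aged unimpaired and 6.29 to 7.27 (median 6.61) in aged impaired samples. Impaired samples were all above the 6 young samples, and all 12 aged samples lay above the young mean, with differences of 0.80 ± 0.22 and 0.51 ± 0.22 (adjusted p = 0.0731 and 0.556). The lowest impaired value was 6.285 and the highest young value 6.279, and 2.32% of all genes had no overlap in that comparison. The mean of Sln, 6.33, lay near the filter at 5.92. Fkbp1a, the immunophilin bound to both store channels, stood at -0.17 ± 0.06 in impaired samples (adjusted p = 0.190). Among the exchangers, Slc8a3 and Slc24a3 differed between impaired and unimpaired samples by 0.41 ± 0.16 and -0.18 ± 0.06 (adjusted p = 0.517 and 0.446). The Slc8a3 values were 7.83 to 9.02 (median 8.77) in unimpaired and 8.72 to 9.44 (median 9.04) in impaired samples. A dimmer Slc8a3 probe set, 1450311_at, went the other way, with means of 6.39 in unimpaired and 6.26 in impaired samples.

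In the remaining lists no gene was called. In impaired against young samples, 0 genes of store-operated entry, 1 mitochondrial, 0 cytosolic and 1 regulator gene had an unadjusted p under 0.05. Of 5 genes of store-operated entry 0 were called, with Stim2, a sensor of store calcium, at -0.14 ± 0.10 and its partner channel Orai2 at 0.05 ± 0.09 in impaired against young samples. Of 6 tested mitochondrial genes 0 were called, with the uniporter regulator Micu3 at -0.17 ± 0.08. Of 9 tested cytosolic calcium-binding genes 0 were called, with Calb2 (calretinin) at -0.23 ± 0.16 and Pvalb (parvalbumin) at 0.19 ± 0.11. Of 10 tested channel regulators 0 were called, with Rims2, a presynaptic scaffold that binds the channels, at 0.24 ± 0.09 (adjusted p = 0.184) and above the young mean in all 12 aged samples.

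**Figure D4:**
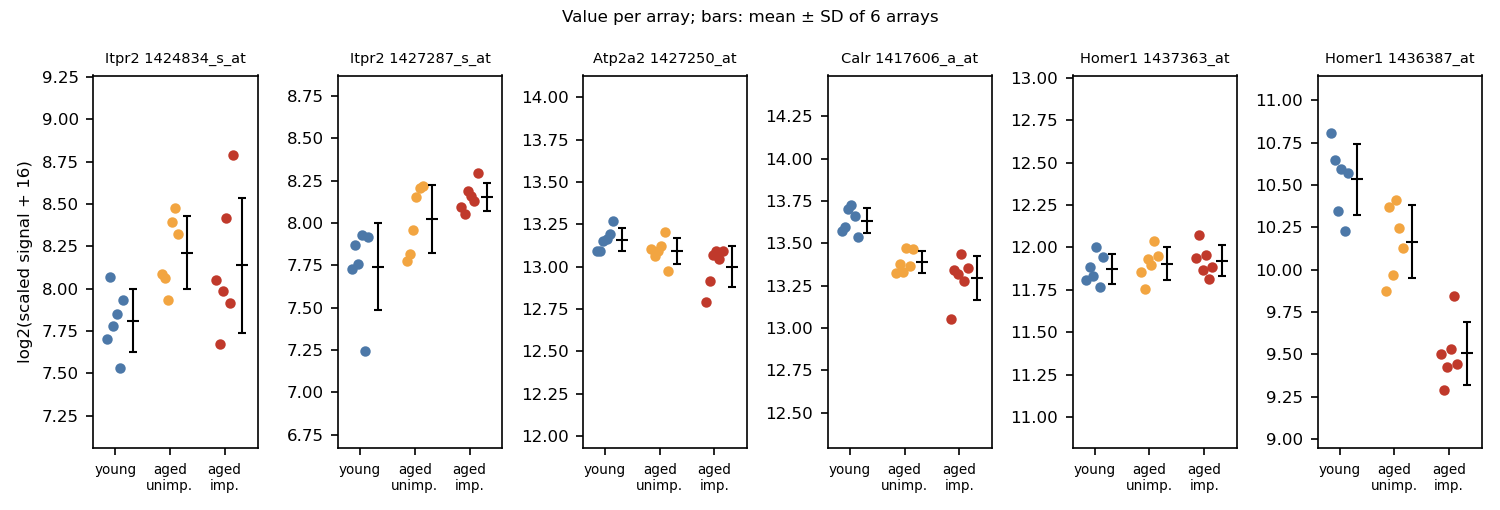
Log2(scaled signal + 16) per array for 6 probe sets, with bars at mean ± SD (n = 6 per group) and axes of equal span. Probe set 1436387_at of Homer1 steps down from young to impaired samples (means 10.53 and 9.51) while 1437363_at of the same gene has means of 11.87 and 11.92, and the aged values of Calr lie below the young ones.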

How the data were processed

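Affymetrix probe set intensity, linear, was used as the authors deposited it, with MAS5 named in the submitters' processing notes (version and settings not given in the sources used here). Each of 18 arrays, with a deposited trimmed mean of 150, was scaled to a trimmed mean (2% off each end) of 500, 16 was added and log2 taken, so that changes of dim genes are understated. Left out were 64 control probe sets and the dimmest 40% of the rest; 27022 above 5.92 remained. Genes were named from the platform annotation, with symbols updated through RefSeq.

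Group means of all 3 groups were fitted in limma 3.58.1 (R 4.3.3), with 2-sided tests, and the script was tested on simulated data. Sources state no test of the authors' own. The precision is limited by the number of arrays. Members, lists and alternatives were chosen with earlier results of these data known. All 36 members are named, 20 in full by lowest unadjusted p. The alternatives tried were offsets of 1 and 64, quantile normalization, a filter of 60% or none, sample number as a block, only the groups compared, covariates for RNA quality, choroid plexus and myelin minus presynaptic markers, array weights, trended and robust moderation, means of probe sets, and leaving out each sample.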

Additional observations from a re-analysis of the deposited data

Results flagged for a closer look

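In 3 of 90 groups of 6 samples (30 members in 3 groups), 1 sample stood apart from the others, where chance gives about 1 group in 20. Cacna1b was low in aged unimpaired replicate 2, at 9.49 beside 9.74 to 9.84 in the other samples of that group. Cacna1c was low in young replicate 6, at 8.80 beside 8.93 to 8.99. Atp2a2 was high in aged unimpaired replicate 5, at 14.28 beside 13.98 to 14.09. No reason was tested for any of them.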

How the results depend on the processing

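The count of called members was 0 in all 4 comparisons under every alternative run and without any 1 sample, on the probe set of highest mean. Over all tested member probe sets, 1 of 8212 alternative fits passed, that of 1427287_s_at of Itpr2 with a filter of 60%. Of the listed calcium-handling genes, the count for impaired against young was 1, and became 0 when only the groups compared were fitted and with the myelin minus presynaptic covariate, and 2 with the mean of probe sets; leaving out 1 sample kept it at 1. For both aged groups against young it was 1, and became 0 with no filter and 2 with the mean of probe sets, and ran from 0 to 1 when 1 sample was left out (0 without young replicate 3 or young replicate 5). With the mean of probe sets, 14 of 80 differences of the 20 members given in full changed sign, none of them called. They include Cacna1a, at 0.034 (impaired) and 0.0064 (both aged), Atp2b2, at -0.06 (impaired), Cacnb1, at -0.10 (impaired), and Cacnb4, at -0.03 (unimpaired). The myelin minus presynaptic covariate turned 10 of 80, and the other alternatives 0 to 5. That covariate was higher in all impaired than in all unimpaired samples, so its effect cannot be told apart from that of the group. With the sample number as a replicate block the counts stayed at 0 for members, and at 1, 0, 1 and 0 for the listed genes. The numbers do not pair the samples: deviations of same-numbered samples correlated at -0.247 to 0.0957. For both aged groups against young, the fit of only those groups is the main one. Array signal near the filter limits Cacng8, Itpr3, Atp2a1 and Sln.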
